A study of Mus musculus with 12 samples.

Results

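The genes described here are those of the neutrophil-recruiting CXC chemokines Cxcl1, Cxcl2, Cxcl3 and Cxcl5 and of their shared receptor Cxcr2, 5 of the 19938 genes measured on 12 arrays of mouse spleen. They were chosen by name, with earlier results of these data known. Each of the 5 has 1 probe set that carries its symbol and no other, and that probe set represents the gene. The samples came from C57BL/6 mice. The labels place 4 biological replicates in each of 3 groups, which are septic mice deficient in TLR signalling, septic mice of wildtype genotype, and wildtype mice without treatment. TLR stands for Toll-like receptor, and the TLR-deficient samples carry Trif and MyD88 in their titles, the adaptor proteins of these receptors, without giving the alleles. Septic mice of both genotypes underwent colon ascendens stent peritonitis (CASP), in which gut bacteria escape into the abdominal cavity through a stent placed in the colon wall. Among the titles, only those of the septic wildtype samples name CASP. The labels give neither the age of the mice nor the time between operation and sampling, and untreated mice of the TLR-deficient genotype are not among the samples. The titles also number the samples: M5 to M8 are septic TLR-deficient replicates 1 to 4, M9 to M12 septic wildtype replicates 1 to 4, and M13 to M16 untreated wildtype replicates 1 to 4.

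CXC chemokines with a glutamate-leucine-arginine motif before their paired cysteines attract neutrophils through the receptor CXCR2. In tissue, macrophages, stromal cells and endothelial cells make them within hours of signals from microbes, interleukin 1 or tumor necrosis factor, largely through the transcription factor NF-kappaB. CXCR2 sits on mature neutrophils, draws them out of the bone marrow into blood and tissue, and is taken off the surface after it has bound its ligands. The spleen holds a store of neutrophils in its red pulp and marginal zone.

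Cxcl5, Cxcl3, Cxcl1 and Cxcl2 lie in this order in a cluster of CXC chemokine genes on chromosome 5, whereas Cxcr2 lies on chromosome 1. The promoter windows of Cxcl1, Cxcl2 and Cxcl3 are shown as those of the ligands that the promoter table lists, and their expression values moved together across the arrays. The window of Cxcl5 was not analysed here. They are RefSeq sequences of build GRCm38.p6, on the plus strand, from 250 bases before to 50 bases after the gene start, at chr5:90890995-90891294 for Cxcl1, chr5:90903649-90903948 for Cxcl2 and chr5:90785851-90786150 for Cxcl3. Capitals mark the 3 runs of at least 7 bases that all 3 windows share. They are GGGAATTTCCC, which holds a sequence of the kind that NF-kappaB dimers bind, ATAAAAGG, a sequence of the TATA box type, and CTCCAGACTCCAG, which lies after the gene start.
Cxcl1: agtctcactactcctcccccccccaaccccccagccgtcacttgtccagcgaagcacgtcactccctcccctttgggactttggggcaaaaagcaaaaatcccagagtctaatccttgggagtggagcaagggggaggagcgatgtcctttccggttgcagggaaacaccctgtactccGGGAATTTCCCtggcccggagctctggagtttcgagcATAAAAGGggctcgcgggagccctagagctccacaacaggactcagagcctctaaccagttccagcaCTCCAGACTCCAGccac
Cxcl2: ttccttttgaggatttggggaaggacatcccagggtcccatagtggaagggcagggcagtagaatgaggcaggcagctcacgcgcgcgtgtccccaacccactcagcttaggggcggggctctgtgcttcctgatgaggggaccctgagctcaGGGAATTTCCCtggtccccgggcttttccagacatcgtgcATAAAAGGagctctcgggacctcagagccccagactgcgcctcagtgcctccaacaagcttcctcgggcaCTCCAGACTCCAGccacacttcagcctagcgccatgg
Cxcl3: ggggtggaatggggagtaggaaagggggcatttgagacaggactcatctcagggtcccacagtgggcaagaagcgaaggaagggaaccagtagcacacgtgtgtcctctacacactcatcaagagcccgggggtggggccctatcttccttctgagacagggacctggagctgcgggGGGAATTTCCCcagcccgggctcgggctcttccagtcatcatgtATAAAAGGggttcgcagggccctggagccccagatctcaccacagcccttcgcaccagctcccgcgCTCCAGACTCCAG
GGGAATTTCCC begins 71 bases before the gene start in Cxcl1, 97 bases before it in Cxcl2 and 73 bases before it in Cxcl3. ATAAAAGG follows at 34, 57 and 29 bases before the start, and CTCCAGACTCCAG begins 33, 13 and 37 bases after it, in the same order of genes. The runs do not overlap each other and were found by comparing these windows, so their presence in them is a description. Searched on both strands of all 32851 promoter windows of the same length, GGGAATTTCCC was in 0.0426%, ATAAAAGG in 1.76%, CTCCAGACTCCAG in 0.0122% and all 3 runs in 0.00913%, which are 3 windows. The window of Cxcr2 holds none of them.

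The 12 arrays did not fall into the labelled groups, and every group name below stands for the label alone. By the correlation of log2 values over all genes (a description, since genes do not vary independently), the nearest array carried the same label for 5 of the 12. It came from the same block for all 12 when the title numbers were divided into M5 to M7 with M16, M8 to M11, and M12 to M15. These blocks were proposed with values of these arrays known, and the labels do not say what the numbers stand for. The arrays that a block and a label divide are M8 (septic TLR-deficient replicate 4), M12 (septic wildtype replicate 4) and M16 (untreated wildtype replicate 4). The array labelled septic wildtype replicate 2 (M10) stood apart from all others, with Pearson's r of 0.765 to 0.809 against 0.956 to 0.991 among the other 11, and a standard deviation of its log2 values of 1.52 against 2.11 to 2.24. Myd88 ranged from 8.62 to 9.64 on the arrays labelled septic TLR-deficient, from 6.48 to 9.20 on those labelled septic wildtype and from 8.87 to 9.75 on arrays with the untreated label. The gene for Trif, Ticam1, ranged from 5.80 to 5.93, from 5.64 to 6.22 and from 5.76 to 6.57 on the arrays of the same 3 labels in that order. The values of these 2 genes therefore do not check the genotype labels. The alleles are not given, and the probe sets may lie outside any deleted parts. The red pulp macrophage, B cell and T cell marker genes that mark spleen had mean log2 values per array of 8.14 to 9.87, 8.06 to 10.28 and 7.19 to 8.96.

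Cxcl2, which encodes the neutrophil attractant also called MIP-2, had the widest range of the 5 genes. Its log2 values were 9.68, 10.52, 10.06 and 4.62 on the arrays labelled septic TLR-deficient replicates 1 to 4, against 4.52, 6.5, 4.86 and 5.39 on those labelled septic wildtype and 5.80, 5.56, 5.56 and 10.57 on those labelled untreated. Replicates 1 to 3 of the TLR-deficient label and untreated replicate 4 were thus high, the other 8 arrays low, and each pair of labelled groups overlapped. The lowest of the 4 high arrays lay 3.18 log2 units above the highest of the other 8, a 9.06-fold gap, and the whole range was 6.06 log2 units (66.7-fold). RMA, the authors' processing, draws the values of arrays towards 1 distribution, so folds between arrays are those of processed values.

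Cxcl1, also called KC, repeated this division. Its log2 values were 9.47, 9.56, 8.33 and 5.65 on septic TLR-deficient replicates 1 to 4, against 6.03, 6.5, 5.93 and 5.57 on septic wildtype replicates 1 to 4 and 5.76, 5.82, 6.22 and 9.74 on untreated replicates 1 to 4. The array labelled untreated replicate 4 was the highest of all 12, and the 4 high arrays stayed 1.84 log2 units (3.57-fold) clear of the others. The 8 low arrays spread over 0.92 log2 units, less than the 1.40 among the 4 high ones.

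Cxcl3, a close relative of Cxcl1 and Cxcl2, had 7.22, 8.16, 6.81 and 4.08 on septic TLR-deficient replicates 1 to 4. It had 4.55, 5.20, 4.73 and 4.65 on septic wildtype replicates 1 to 4, and 4.89, 4.62, 4.81 and 8.39 on untreated replicates 1 to 4. The same 4 arrays were high, by 1.61 log2 units (3.06-fold) at the narrowest point. The highest was again untreated replicate 4 and the lowest septic TLR-deficient replicate 4.

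Cxcl5, also called LIX, was the ligand with the narrowest gap. Its values were 8.97, 8.33, 7.62 and 5.0 on septic TLR-deficient replicates 1 to 4, against 4.81, 5.91, 5.07 and 4.55 on septic wildtype replicates 1 to 4 and 4.90, 5.64, 6.97 and 8.85 on untreated replicates 1 to 4. Septic TLR-deficient replicate 1 was the highest array here, and the 6.97 on untreated replicate 3 brought the gap down to 0.65 log2 units (1.57-fold). For the other 3 ligands that array lay among the low ones.

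Cxcr2, the receptor, ran the other way. Its log2 values were 6.15, 5.53, 6.22 and 7.72 on septic TLR-deficient replicates 1 to 4, against 8.10, 6.25, 7.46 and 8.67 on septic wildtype replicates 1 to 4 and 8.36, 9.50, 9.20 and 6.15 on untreated replicates 1 to 4. The 4 arrays with high ligands were the 4 lowest for the receptor, but the next value, 6.25 on septic wildtype replicate 2, lay only 0.03 log2 units above them, and that is the array whose values were compressed as a whole. Cxcr2 also divided the 8 remaining arrays. Its values were 6.25 to 8.10 on M8 to M11 and 8.36 to 9.50 on M12 to M15. In these bulk samples fewer cells of a type and less RNA per cell cannot be told apart.

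**Figure D1:**
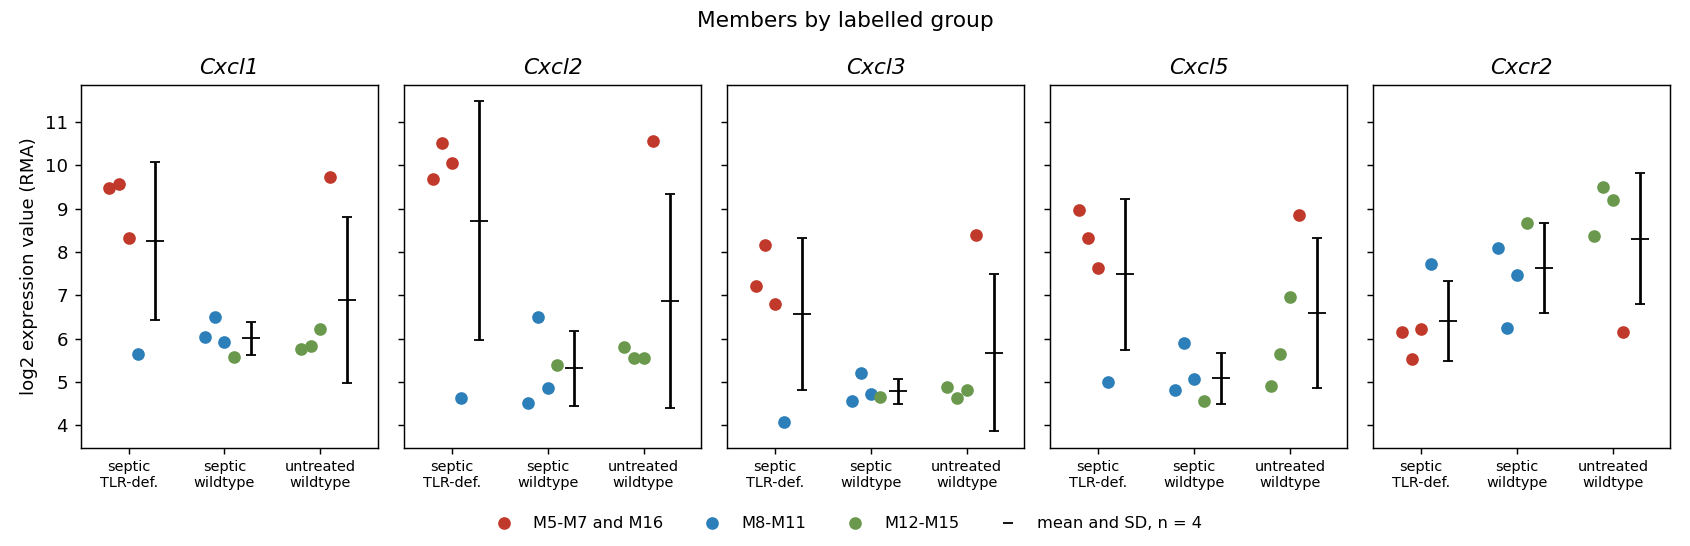
Log2 expression values of the 5 genes on each array (points, replicates 1 to 4 from left to right) under the 3 labels, with the mean and SD of 4 arrays; colours give the blocks of title numbers. In each ligand panel replicates 1 to 3 of the septic TLR-deficient label and replicate 4 of the untreated label lie above all other points, and in the Cxcr2 panel the same 4 arrays lie lowest.

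Taken by title block, the 4 ligands had medians of 9.52 (Cxcl1), 10.29 (Cxcl2), 7.69 (Cxcl3) and 8.59 (Cxcl5) on M5 to M7 with M16. On M8 to M11 the medians were 5.98, 4.74, 4.64 and 5.04 in the same order of genes, and on M12 to M15 they were 5.79, 5.56, 4.73 and 5.27. All 4 ligands were higher on every array of M5 to M7 with M16 than on any of M8 to M11 (5.22% of all genes) or of M12 to M15 (4.79%). Cxcr2 was lower in both cases (4.98% and 7.1% of all genes), and it was also lower on every array of M8 to M11 than on any of M12 to M15 (5.09%). The last 2 blocks overlapped for every ligand, for Cxcl2 through the 6.5 on the compressed array M10 alone, since M8, M9 and M11 at 4.52 to 4.86 lay below M12 to M15 at 5.39 to 5.80. Thus none was higher on all of M8 to M11 (4.38% of all genes were). All 4 ligands were higher on each of M5 to M7 and M16 than on any of the other 8 arrays, which held for 1.72% of all genes, and Cxcr2 was lower, which held for 1.85%. Since the blocks were drawn with the values known, no fit by block was made. In the fits below without replicate 4, however, the arrays left under each label all come from the same block. Those fits share this limit.

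Cxcl1 and Cxcl3 were the most alike of the members. With each gene centred on its own mean, the root-mean-square difference between their log2 values over the 12 arrays was 0.34. It was 0.51 between Cxcl1 and Cxcl5 and 0.66 between Cxcl3 and Cxcl5. Cxcl2 differed from the other ligands by 0.89 to 1.09, and Cxcr2 from the ligands by 2.61 to 3.47.

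The comparison of the arrays labelled septic TLR-deficient with those labelled septic wildtype addresses what TLR signalling contributes to the septic spleen, if the labels hold. The ligands had higher means under the TLR-deficient label and the receptor a lower one, but in limma none of the 5 genes passed an adjusted p of 0.05, and 0 of 19938 genes did (0%). Cxcl2 averaged 8.72 ± 2.76 on septic TLR-deficient arrays and 5.32 ± 0.87 on septic wildtype arrays (SD, n = 4 each), a log2 difference of 3.40 (SE 1.3, 95% interval 0.60 to 6.21, limma adjusted p = 0.590). Cxcl5 averaged 7.48 ± 1.74 and 5.08 ± 0.59 under these labels (SD, n = 4 each), a difference of 2.40 (SE 0.87). Cxcl1 averaged 8.25 ± 1.83 and 6.01 ± 0.38, a difference of 2.25 (SE 0.92). Cxcl3 averaged 6.57 ± 1.75 and 4.78 ± 0.29, a difference of 1.79 (SE 0.87). Cxcr2 averaged 6.40 ± 0.93 and 7.62 ± 1.04, a difference of -1.22 (SE 0.71). Each of these had the same limma adjusted p of 0.590. Unadjusted, 3 of the 5 genes (Cxcl1, Cxcl2 and Cxcl5) had p under 0.05, as had 6.65% of all genes. The labelled groups overlapped for all 5 members, while 2.05% of all genes were higher and 1.76% lower on all TLR-deficient arrays.

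The number of calls turned on the replicate 4 arrays. With replicate 4 left out of each group, Cxcl2 differed by 4.80 (SE 0.46, limma adjusted p = 0.00251), Cxcl1 by 2.97 (adjusted p = 0.00613), Cxcl3 by 2.57 (adjusted p = 0.00888) and Cxcl5 by 3.04 (adjusted p = 0.0378), while Cxcr2 did not pass. In that fit 0.707% of all genes passed. These arrays were known to stand against their labels, so leaving them out favours calls. The arrays left under each label all come from the same block of title numbers, and the blocks were proposed with values known. The adjusted p-values of this fit are therefore a description and no support for a difference. Leaving out replicate 1, 2 or 3 of each group instead gave 0 genes called and Cxcl2 differences of 2.82, 3.19 and 2.80.

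Setting septic TLR-deficient arrays against untreated wildtype arrays changes genotype and sepsis together. No member passed in limma, nor did any of the 19938 genes (0%), and no member's groups failed to overlap, against 2.4% of genes higher and 0.998% lower on all TLR-deficient arrays. Cxcr2 had the largest difference of the 5, at 6.40 ± 0.93 on septic TLR-deficient arrays and 8.30 ± 1.51 on untreated arrays (SD, n = 4 each), a log2 difference of -1.90 (SE 0.71, limma adjusted p = 1). Its unadjusted p was 0.0193 in the limma fit, the only one of the 5 under 0.05, where 1.88% of all genes lay. Cxcl2 differed by 1.84 (SE 1.3), Cxcl1 by 1.37 (SE 0.92), Cxcl3 by 0.89 (SE 0.87) and Cxcl5 by 0.89 (SE 0.87). Cxcl2 averaged 6.88 ± 2.47 (SD, n = 4) under the untreated label, a mean carried by replicate 4. Without replicate 4 of each group, Cxcl2 differed by 4.44, Cxcl1 by 3.19, Cxcl3 by 2.62 and Cxcr2 by -3.06, with limma adjusted p of 0.00715, 0.00856, 0.0176 and 0.0438, where 0.166% of all genes passed. Cxcl5 differed by 2.47 in that fit (limma adjusted p = 0.173). Here too the arrays left out were known to stand against their labels, so these adjusted p-values are a description.

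The comparison of septic with untreated wildtype arrays addresses the response to peritonitis in mice with intact TLR signalling. All 5 members had lower means under the septic label and none passed in limma (0% of all genes). Cxcl2 averaged 5.32 ± 0.87 on septic arrays and 6.88 ± 2.47 on untreated arrays (SD, n = 4 each), a log2 difference of -1.56 (SE 1.3, limma adjusted p = 0.469). The differences were -1.50 for Cxcl5 (SE 0.87), -0.90 for Cxcl3 (SE 0.87), -0.88 for Cxcl1 (SE 0.92) and -0.68 for Cxcr2 (SE 0.71). None of the 5 had an unadjusted p under 0.05, as 8.81% of all genes had. No member separated the groups, against 3.68% of genes higher and 2.74% lower on all septic arrays. Without untreated replicate 4 the differences were 0.07 for Cxcl1, 0.01 for Cxcl3, -0.33 for Cxcl2, -0.75 for Cxcl5 and -1.40 for Cxcr2. Without replicate 4 of each group 0 members passed in limma, as did 0.0451% of all genes. Without septic wildtype replicate 2 the Cxcr2 difference was -0.23. The 3 comparisons share arrays, so their values are not independent of each other.

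**Figure D2:**
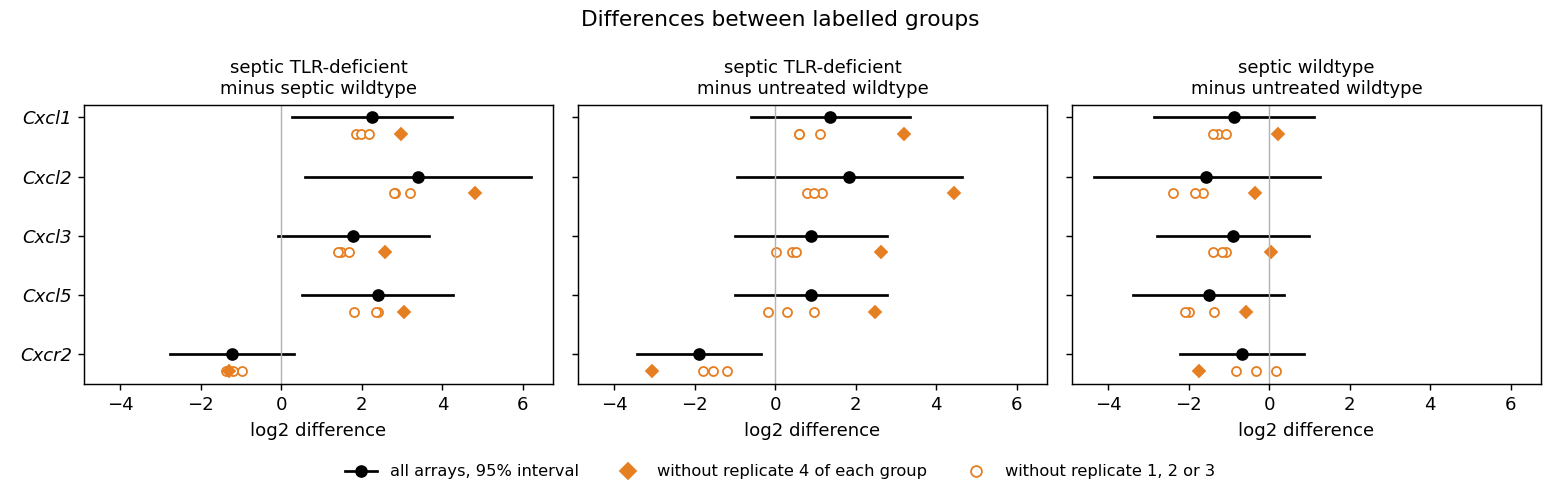
Log2 differences of the 5 genes in the 3 comparisons of labelled groups. Black points and lines give the fit to all arrays with its 95% interval, orange diamonds the fit without replicate 4 of each group, and open circles the fits without replicate 1, 2 or 3; the diamonds lie farthest from 0 for all ligands in the comparisons of septic TLR-deficient arrays.

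The other 3 genes of the chemokine cluster were not high on the arrays with high ligands. Ppbp, the platelet chemokine that is cut to a CXCR2 ligand, lies between Cxcl5 and Cxcl3 together with Pf4, a platelet chemokine that does not act through CXCR2. Ppbp was at 9.17 to 10.04 on M5 to M7 and M16, against 10.12 to 10.96 on the other 8 arrays. It was thus lowest on the same 4 arrays as Cxcr2, without overlap, by a gap of 0.09 log2 units. Pf4 ranged from 6.53 to 7.87 on these 4 arrays and from 6.49 to 7.38 on the other 8. Cxcl15, a chemokine of lung epithelium that lies between Cxcl3 and Cxcl1, was at 2.65 to 2.90 and at 2.65 to 4.21, the last on the compressed array M10. The ranges over 12 arrays were 1.79, 1.37 and 1.57 log2 units for Ppbp, Pf4 and Cxcl15, against 4.16 to 6.06 for the 4 ligands around them.

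**Figure D3:**
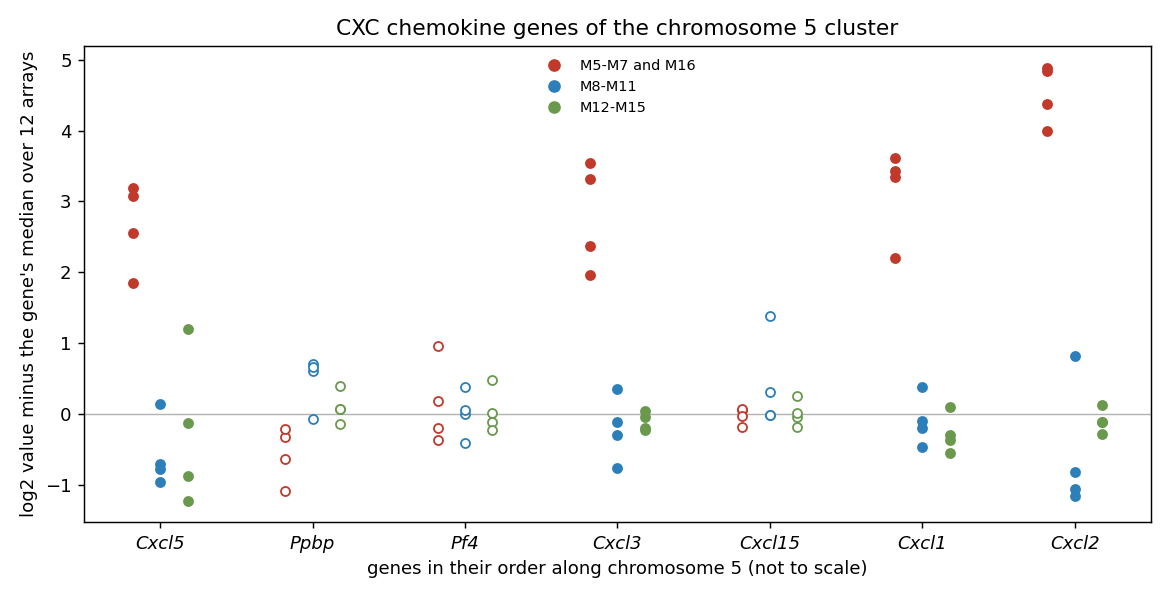
Log2 values of 7 CXC chemokine genes in their order along chromosome 5, each minus the gene's median over 12 arrays; points are arrays, coloured by block of title numbers, and filled for the 4 ligands described here. The arrays M5 to M7 and M16 stand above the rest for Cxcl5, Cxcl3, Cxcl1 and Cxcl2 and not for Pf4 or Cxcl15, and they stand lowest for Ppbp.

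Receptors and chemokines of neighbouring axes moved less. Cxcr1, another receptor for such ligands, ranged from 4.87 to 5.68 over the 12 arrays, and Ackr1, a decoy receptor on endothelium and red cells, from 4.07 to 5.0. Whether these values lie above background was not tested. Cxcl12, which retains neutrophils in marrow and tissue, ranged from 8.51 to 10.50, and its receptor Cxcr4 from 9.43 to 11.14. Cxcl16, a membrane-bound chemokine of macrophages, ranged from 6.19 to 8.24, and Cxcl17, a chemokine of mucosal surfaces, from 4.88 to 5.75. Of these 9 genes 0 passed in any of the comparisons in limma, and their median difference was 0.25 for septic TLR-deficient minus septic wildtype arrays, where the median of all genes was -0.06.

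Genes that induce the ligands, or that NF-kappaB induces along with them, followed the ligands in part. On M5 to M7 and M16, 6 of 14 measured genes of this list (Il1a, Il6, Il17f, Nfkbia, Nfkbiz and Tnfaip3) were higher than on any other array, where 1.72% of all genes were, and the other 8 overlapped. Il1b was at 7.98 to 9.76 on these 4 arrays and 6.79 to 8.82 on the other 8, and Tnf, another inducer of the ligands, at 6.33 to 7.57 and 6.13 to 7.60. Il17f separated only narrowly, at 5.26 to 6.59 on these 4 arrays against 4.74 to 5.20 on M8 to M11 and 4.79 to 5.16 on M12 to M15. Il17f, Nfkbia, Il1b and Tnf are named here after their values were seen, and the list was chosen with earlier results known. By label, of the 14 genes of this list, 13 had a higher mean on septic TLR-deficient than on septic wildtype arrays, with a median log2 difference of 0.67 against -0.06 over all genes, and 0 passed in limma. Il6, a cytokine that drives the acute-phase response, was at 6.34 to 9.22 on M5 to M7 and M16, against 2.90 to 4.31 on the other 8 arrays. Il1a, an alarm cytokine, was at 8.24 to 9.86 against 5.01 to 6.13 on these sets. Tnfaip3, an inhibitor of NF-kappaB signalling, was at 9.64 to 10.91 against 6.76 to 8.47, and Nfkbiz, a nuclear cofactor of NF-kappaB, at 8.27 to 9.53 against 6.25 to 8.01. Between septic wildtype and untreated arrays 12 of the 14 had a lower mean under the septic label, with a median of -0.82 against 0.07 over all genes, and between septic TLR-deficient and untreated arrays 6 had a higher and 8 a lower mean.

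Csf3, the cytokine G-CSF that raises neutrophil output and release, followed the ligands. Its log2 values were 7.71, 7.32, 6.33 and 4.66 on septic TLR-deficient replicates 1 to 4, against 4.2, 5.98, 4.41 and 4.19 on septic wildtype replicates 1 to 4 and 4.43, 4.29, 4.46 and 7.72 on untreated replicates 1 to 4. Csf3r, its receptor on neutrophils, was at 6.00 to 7.52 on M5 to M7 and M16, at 5.12 to 7.29 on M8 to M11 and at 7.64 to 8.26 on M12 to M15. Cebpb, a transcription factor of emergency granulopoiesis, was at 6.97 to 8.53 on the 4 arrays with high ligands and at 5.21 to 7.57 on the others, and Csf2rb, the shared signalling chain of the GM-CSF receptor, at 8.06 to 8.68 and 6.67 to 9.32. Of the 10 genes of this list 0 passed in limma, 9 had a higher mean on septic TLR-deficient than on septic wildtype arrays, and their median difference was 0.24 against -0.06 over all genes.

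Mature neutrophil markers did not move as 1 group, and their part in the Cxcr2 values was not tested. The mean over 15 measured markers was 6.67 to 7.37 on M5 to M7 and M16, 6.08 to 6.36 on M8 to M11 and 7.43 to 8.28 on M12 to M15. Retnlg, a secreted protein of neutrophils, was at 6.33 to 8.24 on M5 to M7 and M16 and at 6.86 to 8.07 on M8 to M11, against 9.57 to 10.49 on M12 to M15. Mmp8, neutrophil collagenase, was at 5.44 to 7.39 and 4.99 to 5.92 on the first 2 blocks, against 7.53 to 8.70 on M12 to M15. Lcn2, an iron-scavenging protein that inflamed tissue also makes, was instead at 11.03 to 12.06 on M5 to M7 and M16, against 7.88 to 9.02 on M8 to M11 and 10.38 to 11.05 on M12 to M15. Clec4e, a receptor for microbial glycolipids on activated myeloid cells, was at 7.20 to 8.72, 4.39 to 5.15 and 5.98 to 6.96 on the 3 blocks in that order. By label, the mean of the list was 6.14 to 7.37 on septic TLR-deficient arrays, 6.08 to 8.06 on septic wildtype arrays and 6.67 to 8.28 on untreated arrays, and 0 of 15 genes passed in limma, with 10 of higher and 5 of lower mean in the comparison of the septic groups (median 0.32).

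Granule genes of immature neutrophils followed neither the ligands nor the receptor. The mean over 10 such genes was 5.21 to 7.36 on M5 to M7 and M16, 5.52 to 6.40 on M8 to M11 and 5.41 to 6.22 on M12 to M15. The highest value lay on septic TLR-deficient replicate 3, where Prtn3, a granule protease, was at 7.46, Camp, an antimicrobial peptide, at 7.89 and Ngp at 9.62. Chil3, with the widest range of the list, was highest on untreated replicate 2, at 8.66, and at 8.27 on septic TLR-deficient replicate 3. Of the 10 genes, 7 had a higher and 3 a lower mean on septic TLR-deficient than on septic wildtype arrays (median 0.25), and 0 passed in limma.

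The list means of other cell types overlapped between the arrays with high ligands and the other 8 for every list, and their part in the ligand values was not tested. For some lists the overlap came from the compressed array M10 alone, and leaving it out of these ranges was chosen after the values were seen. The mean over 7 B cell markers was 8.06 to 8.31 on M5 to M7 and M16 and 8.23 to 10.28 on the other 8, or 9.55 to 10.28 on 7 of them without M10. Of the 7 genes, 2 (Cd79b and Fcer2a) were lower on the 4 arrays than on any other, as were 1.85% of all genes, and 5 overlapped. Fcer2a, the CD23 gene of follicular B cells, was at 4.99 to 5.38 on the 4 arrays, against 7.63 to 9.88 on the other 8. The mean over 10 red pulp macrophage markers was 8.42 to 8.89 against 8.14 to 9.87, or 9.14 to 9.87 without M10. Of the 10 genes, 2 (Slc40a1 and Cd163) were lower on all 4 arrays, as were 1.85% of all genes, and 8 overlapped. Among those 8, Spic leaned the other way, at 9.24 to 10.11 on the 4 arrays against 7.80 to 9.44. The mean over 9 stromal and endothelial markers was 7.81 to 8.33 against 6.63 to 8.48. Of the 9 genes, 1 (Cdh5) was higher on all 4 arrays, as were 1.72% of all genes, and 8 overlapped. The mean over 9 mesothelial and pancreatic markers was 5.02 to 6.23 on the 4 arrays and 5.03 to 8.02 on the other 8. The mean over 6 platelet markers was 6.90 to 7.53 against 7.17 to 7.79. Of the 6 genes, 2 (Vwf and Ppbp) were lower on all 4 arrays, as were 1.85% of all genes, and 4 overlapped.

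**Figure D4:**
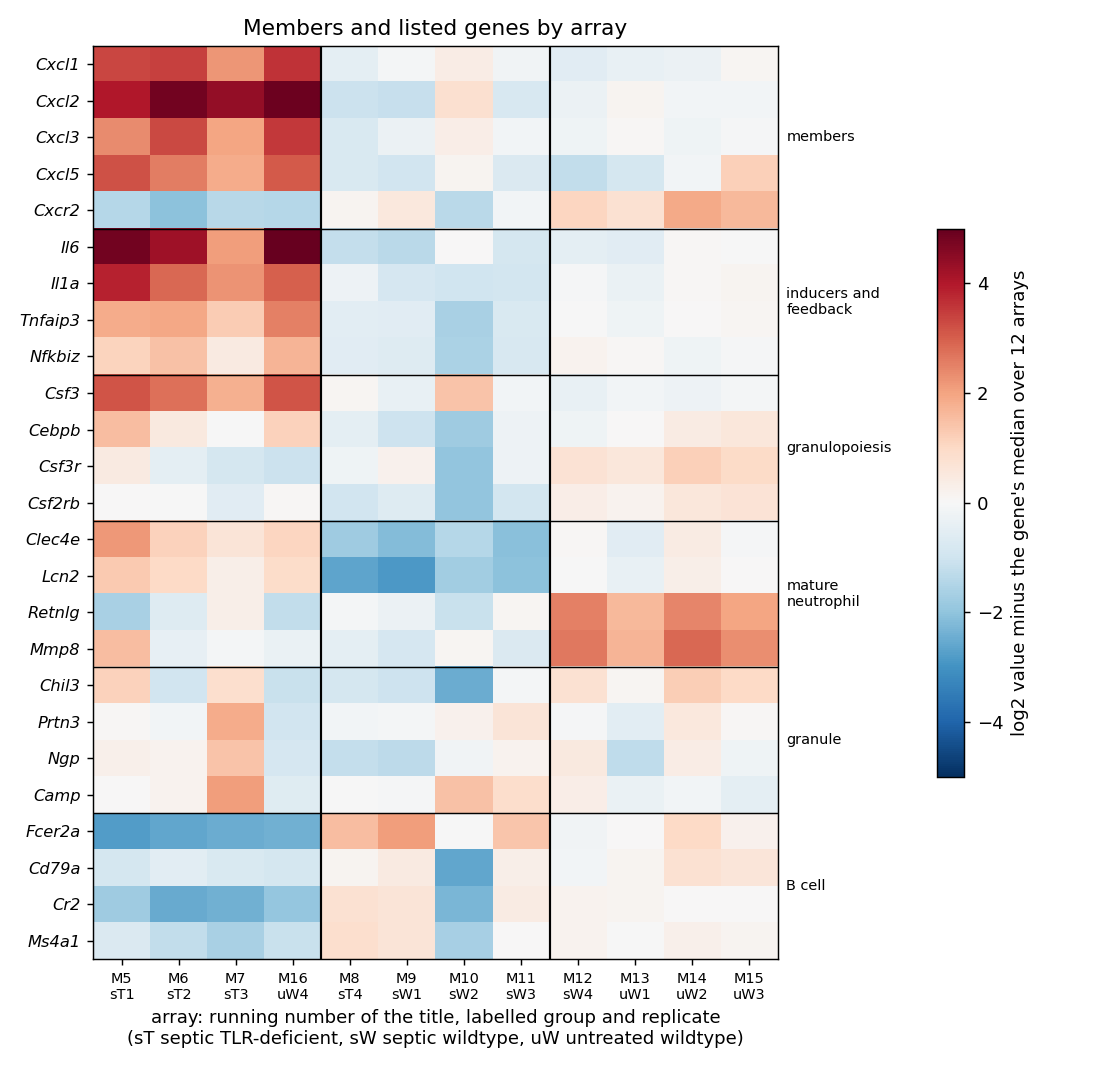
Log2 values of the 5 members and of the 4 most variable genes of 5 lists on each array, minus the gene's median over 12 arrays, with arrays ordered by block of title numbers (black lines) and their labels beneath. Il6, Il1a, Tnfaip3 and Csf3 are red on the same 4 arrays as the ligands, whereas Cxcr2, Fcer2a and Cr2 are blue there, and Retnlg and Mmp8 are red on M12 to M15.

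Among all other genes, those nearest to each member over the 12 arrays were found by the root-mean-square difference of centred log2 values, which is a description without a test. Nearest to Cxcl1 were Csf3 (0.46), Edn1 (0.47), Tnip3 (0.47), Ccl4 (0.49) and Ptgs2 (0.49). Edn1 encodes the vasoconstrictor endothelin 1, Tnip3 an inhibitor of NF-kappaB signalling, Ccl4 a macrophage chemokine and Ptgs2 the cyclooxygenase that inflammation induces. Nearest to Cxcl2 were Il6 (0.73), AA467197 (0.80), Cd14 (0.80), Tnip3 (0.84) and Il10 (0.85). Cd14 encodes the co-receptor for bacterial lipopolysaccharide and Il10 an anti-inflammatory cytokine, and Il10 was at 7.71 to 7.98 on M5 to M7 and M16 against 3.72 to 5.27 on the other 8 arrays. Nearest to Cxcl3 were Nts (0.37), Rasd1 (0.40), Ramp3 (0.42), Adamts1 (0.43) and Ccl4 (0.44). Nts encodes the peptide neurotensin, Ramp3 a partner protein of the adrenomedullin receptor and Adamts1 a secreted protease. Nearest to Cxcl5 were Tnip3 (0.52), Ccl4 (0.55), Ptgs2 (0.56), Il1a (0.64) and Csf3 (0.65), so that Tnip3 and Ccl4 each appeared for 3 of the 4 ligands.

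Cxcr2 had other neighbours. Nearest to it were Mmp9 (0.48), Lrrn1 (0.52), Klri1 (0.55), Naaa (0.56) and Tlr9 (0.62). Mmp9, a gelatinase stored in neutrophil granules, was at 5.76 to 6.59 on M5 to M7 and M16 and at 6.32 to 8.55 on the other 8 arrays. Tlr9, the receptor for bacterial DNA, was at 6.94 to 7.69 against 6.89 to 9.61. Klri1, an inhibitory receptor of natural killer cells, was at 4.71 to 5.16 against 5.59 to 7.91, without overlap.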

How the data were processed

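RNA of 12 mouse spleens was measured on Affymetrix gene arrays, 4 per label. The deposited values are log2 expression values that the authors made with RMA in Affymetrix Expression Console, per the submitters' processing notes; versions are not given in the sources used here. RMA corrects background, quantile-normalizes arrays and summarises probes, so intensities and detection calls were not used, and the number of arrays limits precision. Nothing further was normalized.

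Of 35557 probe sets, 21789 carried 1 gene symbol in the platform annotation, 1621 several and 12147 none, and 21698 matched a RefSeq gene. The brightest probe set over all arrays stood for each of 19938 genes. Labelled groups were compared in 1 limma 3.58.1 model (R 4.3.3) over all 12 arrays and genes with Benjamini-Hochberg adjustment (threshold 0.05). The model was tested on simulated data first. Its p-values set a difference of label means against the spread between replicates of the same label, pooled over the labels. That spread holds the departures of M10 and of the replicate 4 arrays. The alternatives were normalization, filters, array weights, a replicate block and left-out arrays. Members and gene lists (145 genes, 128 measured) were chosen with earlier results of these data known. Genes named from a list come mainly from the 4 with the widest range. Not all 4 are given for every list, a choice made with the values known, and a few outside those 4 are named for their values. Other CXCR2 ligands and receptors are all named, as are the 5 nearest genes of each member. Figures used matplotlib 3.10.9 (Python 3.11.15).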

Additional observations from a re-analysis of the deposited data

Results flagged for a closer look

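In 34 of 192 groups of 4 arrays (64 genes, 3 labels), 1 array lay far from the other 3 by Dixon's criterion. Chance alone gives this in about 5% of groups, or 9.6 of 192, for genes picked without regard to their values. Most of the 64 genes were picked for a wide range over these same arrays, which favours such groups. The 34 therefore cannot be judged against the 9.6, and genes of 1 array are not independent.

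Of these, 13 lay on the array labelled untreated replicate 4 (M16). It was high for Cxcl1 (9.74), Cxcl2 (10.57) and Cxcl3 (8.39), for the cytokines Il6 (9.22), Il1a (8.99) and Csf3 (7.72), for Tnfaip3 (10.91) and Nfkbiz (9.53), and for the endothelial genes Sele (7.52) and Cdh5 (9.12). It was low for Slc40a1 (7.91), which red pulp macrophages use to release iron, for Cr2 (7.72), a complement receptor of B cells, and for Ccl19 (9.59), a chemokine of the T cell zone.

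The array labelled septic TLR-deficient replicate 4 (M8) was low for Cxcl2 (4.62) and for Pdgfra (7.56), a receptor of fibroblasts. It was high for Fcer2a (9.35), for the monocyte receptors Ccr2 (7.43) and Cx3cr1 (7.29), and for the collagen gene Col1a2 (8.25).

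The array labelled septic wildtype replicate 2 (M10), whose values were compressed as a whole, was high for Csf3 (5.98). It was low for Cxcl12 (8.51), the integrin gene Itgam (5.23), the receptor kinase gene Grk6 (6.71), Cr2 (7.37), the interleukin 7 receptor gene Il7r (6.71) and Ccl19 (7.94). The array labelled septic wildtype replicate 4 (M12) was high for the pancreatic enzyme genes Cpa1 (9.77) and Cela2a (8.79). It was not alone in this. The 2 genes were at 11.08 and 9.29 on untreated replicate 2 (M14) and at 7.86 and 6.45 on untreated replicate 4 (M16). The criterion did not flag them there.

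The array labelled septic TLR-deficient replicate 3 (M7) was high for Prtn3 (7.46) and Camp (7.89) and low for Cxcl12 (9.35) and Ms4a4c (8.13). Replicate 1 of that label (M5) was high for Itgam (8.62), and replicate 2 (M6) was low for F13a1 (5.71), a monocyte gene for a clotting factor.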

How the results depend on the processing

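Of 432 values recomputed under the alternatives, 414 kept their direction and their side of the threshold or, for counts of genes called, their size. Many could not move. Robust variances, the replicate block, the mean of probe sets, and leaving out an array of the group not compared keep a member's difference as it was. With 0 genes called in the main fit, the side of the threshold could change only by a gain. With array weights, which gave septic wildtype replicate 2 a weight of 0.04, 1 gene passed between septic and untreated wildtype arrays. Between these labels the sign turned for Cxcl1 without untreated replicate 4 (0.07) and without replicate 4 of each group (0.22), for Cxcl3 likewise (0.01 and 0.05), and for Cxcr2 without replicate 2 of each group (0.17). Between septic TLR-deficient and untreated arrays it turned for Cxcl5 without replicate 1 of each group (-0.17). The cause was not tested. Fits with arrays left out called 0 to 141 genes for septic TLR-deficient against septic wildtype arrays, 0 to 33 between septic TLR-deficient and untreated arrays, and 0 to 9 between septic and untreated wildtype arrays. Over the same fits, the differences of septic TLR-deficient minus septic wildtype arrays were 1.81 to 3.12 for Cxcl1, 2.80 to 4.80 for Cxcl2, 1.26 to 2.62 for Cxcl3, 1.81 to 3.22 for Cxcl5 and -1.67 to -0.87 for Cxcr2. Between septic TLR-deficient and untreated arrays they were 0.58 to 3.19, 0.80 to 4.44, 0.01 to 2.62, -0.17 to 2.47 and -3.06 to -1.21, and between septic and untreated wildtype arrays -1.39 to 0.22, -2.39 to -0.33, -1.39 to 0.05, -2.10 to -0.57 and -1.75 to 0.17, in the same order of genes. Centring each array on its median moved the median of all genes by 0.11 between the septic labels and by -0.13 between septic and untreated wildtype arrays.

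No pairing by replicate number was seen, as 2 of 12 same-numbered pairs deviated together with a correlation over 0.1 (range -0.54 to 0.14). The deviations were taken from the label means, so they hold the departures of M10 and of the replicate 4 arrays. The check therefore cannot exclude a pairing. With the replicate number as a block, 0 genes passed in limma and the Cxcl2 difference of septic TLR-deficient minus septic wildtype arrays was 3.40 (SE 1.44, limma adjusted p = 0.626), so the block changed no call.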

Other observations

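Genes of neutrophil adhesion and of receptor desensitisation, and monocyte and T cell markers, are given here by label and by block of title numbers, and none of them passed in limma. Of 10 adhesion genes, 8 had a higher mean on septic TLR-deficient than on septic wildtype arrays (median 0.32, against -0.06 over all genes). Sele, the endothelial selectin that lets neutrophils roll, was at 5.54 to 7.52 on M5 to M7 and M16, against 5.04 to 5.75 on the other 8 arrays. On the same sets Itgam was at 6.97 to 8.62 against 5.23 to 7.75, and Icam1 at 8.76 to 9.59 against 6.22 to 9.59. Itgal was at 7.30 to 9.12 against 6.90 to 9.16. Of 11 genes of chemokine receptor desensitisation and signalling, 8 had a higher mean on septic TLR-deficient arrays (median 0.11). Rgs1, which shortens chemokine receptor signals, was at 8.11 to 9.28 on M5 to M7 and M16, 4.66 to 6.24 on M8 to M11 and 7.44 to 8.06 on M12 to M15. The mean over 6 monocyte markers was 7.02 to 7.56 on M5 to M7 and M16, 6.91 to 8.39 on M8 to M11 (the lowest on the compressed array M10) and 8.05 to 8.59 on M12 to M15. The mean over 6 T cell markers was 7.79 to 7.98, 7.19 to 8.91 and 8.13 to 8.96 on these blocks. Without M10, a choice made after the values were seen, the arrays other than M5 to M7 and M16 were at 8.05 to 8.59 for monocyte and 8.13 to 8.96 for T cell markers, above the 4 arrays for both lists. With M10 kept, 2 of 6 monocyte markers (Ccr2 and Cx3cr1) and 1 of 6 T cell markers (Cd8a) were lower on all 4 arrays. The others overlapped, and 1.85% of all genes were lower.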
